A study of Mus musculus with 8 samples.

Results

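The Lgr5+T8- cells are mammary basal cells sorted as carrying Lgr5 and lacking the tetraspanin Tspan8. They make up 2 of the 8 RNA-seq libraries of the study, and were set against the mean of the 3 other sorted populations, which hold 6 libraries: Lgr5+T8hi, Lgr5-T8hi and Lgr5-T8-. Each population has 2 libraries, and the libraries numbered 1 and 2 belong to batches 1 and 2, as the labels record them. All cells came from untreated 10-week-old female C57BL/6 mice, and every population carried the same Lgr5-GFP-IRES-CreERT2 allele, in which the Lgr5 locus drives a green fluorescent protein and a tamoxifen-activated Cre. A cell therefore counts as Lgr5+ through the reporter, and cells in which the reporter is silent fall into the Lgr5- gates. The labels do not say if the paired libraries stem from different mice, so the p-values below reflect the spread among these samples only, part of which may be technical. Values are counts per 1000000 reads (CPM), scaled to the library's total over the genes tested after adjustment by TMM normalization. Differences are log2 differences between Lgr5+T8- and the other populations, with the batch as a block in the model.

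Basal cells form the outer layer of the mammary duct, lie on the basement membrane and contract in response to oxytocin to eject milk. The basal layer also holds the cells with most regenerative activity on transplantation. Lgr5 is a receptor for R-spondins, which strengthen Wnt signalling, and it marks stem cells in several epithelia. Tspan8 is a tetraspanin, a membrane protein that organises other receptors into domains of the cell surface.

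Total counts were 33976135 and 24571300 in the Lgr5+T8- libraries and ran from 24662492 to 38384875 in the 6 others. The sort genes followed the labels. Tspan8 stood at 10.6 and 6.82 CPM in Lgr5+T8- cells, against 289 and 261 CPM in Lgr5+T8hi, 167 and 150 CPM in Lgr5-T8hi and 4.37 and 3.16 CPM in Lgr5-T8- cells. Lgr5 stood at 185 and 212 CPM in Lgr5+T8- cells, against 174 and 193 CPM in Lgr5+T8hi, 119 and 129 CPM in Lgr5-T8hi and 58.4 and 50.5 CPM in Lgr5-T8- cells. For Lgr5, no difference from Lgr5+T8hi was detected (log2 difference 0.11 ± 0.11 SE, edgeR adjusted p = 0.615), and the Lgr5- gates were not empty of the transcript. The basal label was borne out by its defining markers. On a scale that corrects for gene length and depth (RPKM), the Lgr5+T8- libraries averaged 3204 for Krt14 and 1226 for Krt5, the basal keratins, 3059 for Acta2 and 449 for Myh11, the smooth-muscle actin and myosin, and 42.4 for Trp63, the transcription factor that sets basal identity. The same scale gave 350 for the luminal keratin Krt8, 12.1 for the fibroblast collagen Col1a1, 8.70 for the endothelial Pecam1 and 0.186 for the leukocyte gene Ptprc.

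Against the mean of the other 3 populations, 238 genes were higher in Lgr5+T8- cells (1.44% of the 16526 genes tested) and 753 were lower (4.56%), by edgeR's quasi-likelihood test at an adjusted p below 0.05. Among the genes called, the lower ones were less abundant and differed by more. Their median level over the 8 libraries was 5.40 CPM and their median absolute log2 difference 1.18, whereas the higher genes had a median of 27.1 CPM and a median log2 difference of 0.45, and all genes tested a median of 14.4 CPM. A difference of more than 2-fold was reached by 475 of the 753 lower genes and by 16 of the 238 higher ones. A gene with few reads needs a larger difference to pass the test, so these sizes also depend on which genes could pass. Taken against the single populations, 163 of the 753 lower genes were called against all 3, 335 against 2 and 254 against 1. Of the 238 higher genes, 16 were called against all 3, 95 against 2, 115 against 1 and 12 against none. A call in the opposite direction against some population was found for 13 of the higher and 7 of the lower genes. The numbers rest on the model. Without the batch term 5 genes were higher and 47 lower. When Lgr5+T8- library 1 was left out, the counts were 146 higher and 489 lower, and without Lgr5+T8- library 2 they were 55 and 234. Leaving out Lgr5+T8hi library 1 or 2 gave 130 and 121 higher genes, Lgr5-T8hi library 1 gave 101, and Lgr5-T8- library 1 or 2 gave 387 and 488. The lower genes numbered 497 without Lgr5+T8hi library 2.

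A difference from a mean of 3 can come from 1 of them, so a gene was called apart from each of the other populations only where all 3 pairwise differences had the same sign and the largest of the 3 p-values passed adjustment over all genes. By this rule 47 genes were apart from each (0.284%), 3 of them higher in Lgr5+T8- cells (0.0182% of those tested) and 44 lower (0.266%). The rule favours genes whose libraries do not overlap, so a lack of overlap adds no separate support. Both Lgr5+T8- libraries lay above all others in the 3 higher genes and below them in 42 of the 44. Over all genes tested, they lay below all others in 913 (5.52%) and above in 520 (3.15%). Without adjustment, 143 higher and 483 lower genes had a largest p below 0.05. All 47 kept their direction in every run with 1 library left out. The call was kept by 3 and 8 of the 47 without Lgr5+T8- libraries 1 and 2, by 11 and 10 without Lgr5+T8hi libraries 1 and 2, by 36 and 41 without Lgr5-T8hi libraries 1 and 2, and by 32 and 40 without Lgr5-T8- libraries 1 and 2. In all, 5 and 8 genes were called apart without Lgr5+T8- libraries 1 and 2, and 12 and 11 without Lgr5+T8hi libraries 1 and 2. Leaving out an Lgr5-T8hi library gave 76 and 71 genes for replicates 1 and 2. With no batch term no gene was called.

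The 3 genes above every other population were Pamr1, Gjb2 and Lhx2. Pamr1, at chr2:102549939-102643041 (GRCm38), encodes a secreted protein with a peptidase domain taken to be inactive. It stood at 40.1 and 37.7 CPM in Lgr5+T8- cells, against 15.7 and 17.4 CPM in Lgr5+T8hi, 15.9 and 15.9 CPM in Lgr5-T8hi and 25.1 and 18.7 CPM in Lgr5-T8- cells. Both Lgr5+T8- libraries lay above all 6 others, and the smallest pairwise difference, from Lgr5-T8-, was 0.83 ± 0.13 SE (adjusted p = 0.0176 for being apart from each). Gjb2, at chr14:57098602-57104702, encodes the gap junction protein connexin 26. It was at 8.63 and 8.41 CPM in Lgr5+T8- cells, against 1.61 and 2.19 CPM in Lgr5+T8hi, 1.54 and 2.64 CPM in Lgr5-T8hi and 1.46 and 1.21 CPM in Lgr5-T8- cells. Its libraries did not overlap either, and the smallest pairwise difference was 2.05 ± 0.24 SE (adjusted p = 0.00407).

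Lhx2, a LIM-homeodomain transcription factor, rested on few reads. It had 80 and 17 counts in Lgr5+T8- cells, against 12 and 2 in Lgr5+T8hi, 10 and 1 in Lgr5-T8hi and 2 and 2 in Lgr5-T8- cells, which is 2.52 and 0.678 CPM against 0.0266 to 0.346 CPM in the 6 other libraries. Both Lgr5+T8- libraries were above the others, with replicate 1 well above replicate 2. Gjb2 and Lhx2 lie under the abundance set for named genes and were named after their values were seen. The call of Pamr1 was lost without either Lgr5+T8- library or either Lgr5+T8hi library (adjusted p 0.153, 0.213, 0.0814 and 0.0551), that of Gjb2 without Lgr5+T8- library 1, Lgr5+T8hi library 1 or Lgr5+T8hi library 2 (0.0728, 0.136 and 0.0565), and that of Lhx2 in 6 of the 8 such runs (0.114 to 0.864) and with DESeq2 (0.0878). The difference of Pamr1 from the mean of the other 3, 1.12 ± 0.10 SE, was called in all 8 runs, with adjusted p of at most 0.00667.

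There were 3 genes below every other population in the complete data and in all 8 runs with 1 library left out. Nrp1, the co-receptor of class 3 semaphorins and of vascular endothelial growth factor, lies at chr8:128358591-128505476. It stood at 5.92 and 6.86 CPM in Lgr5+T8- cells, against 26.5 and 34.0 CPM in Lgr5+T8hi, 13.5 and 17.7 CPM in Lgr5-T8hi and 14.7 and 16.6 CPM in Lgr5-T8- cells. Its difference from the mean of the others was -1.60 ± 0.11 SE, and its smallest pairwise difference -1.28 (adjusted p = 0.00118). Sparcl1, a secreted matricellular glycoprotein at chr5:104079108-104114088, was at 51.5 and 33.8 CPM in Lgr5+T8- cells, against 193 and 150 CPM in Lgr5+T8hi, 159 and 107 CPM in Lgr5-T8hi and 109 and 91.7 CPM in Lgr5-T8- cells. Its smallest pairwise difference was -1.26 (adjusted p = 0.000595). Lrrc32, which holds latent transforming growth factor beta at the cell surface, lies at chr7:98489305-98501831. It was at 13.6 and 7.46 CPM in Lgr5+T8- cells, against 49.0 and 35.6 CPM in Lgr5+T8hi, 31.7 and 23.0 CPM in Lgr5-T8hi and 37.3 and 23.6 CPM in Lgr5-T8- cells, a smallest pairwise difference of -1.40 (adjusted p = 0.000595). In all 3 genes neither Lgr5+T8- library overlapped with any other, and their highest adjusted p over the runs with 1 library left out was 0.0395, 0.0251 and 0.0241 in the order named.

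The Notch receptor Notch3 and the transcriptional repressor Heyl, a target of Notch signalling, were both among the 44. Notch3, at chr17:32120820-32166896 on the minus strand, stood at 18.1 and 17.8 CPM in Lgr5+T8- cells, against 58.8 and 65.2 CPM in Lgr5+T8hi, 66.7 and 50.5 CPM in Lgr5-T8hi and 52.1 and 40.4 CPM in Lgr5-T8- cells. Heyl stood at 2.30 and 1.36 CPM in Lgr5+T8- cells, against 5.28 and 5.30 CPM in Lgr5+T8hi, 7.09 and 5.19 CPM in Lgr5-T8hi and 6.12 and 4.82 CPM in Lgr5-T8- cells. The smallest pairwise differences were -1.36 for Notch3 (adjusted p = 0.00342) and -1.54 for Heyl (adjusted p = 0.0146), with no overlap between the Lgr5+T8- libraries and the others. Of the 22 Notch pathway genes tested, only these 2 were lower against the mean of the other 3, and Hes1 was higher by 0.36 (adjusted p = 0.0481). Notch3 lost its call of being apart without Lgr5+T8- library 1 (adjusted p = 0.0583). Heyl lost it without either Lgr5+T8- library (0.066 and 0.198) or either Lgr5+T8hi library (0.0539 and 0.144). Hes1 lost its call against the mean in 6 of the 8 runs, with a difference of 0.08 and an adjusted p of 0.812 without Lgr5+T8- library 1, when 4 genes of the list were lower.

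Kcne4, an accessory subunit of potassium channels, stood at 4.09 and 2.63 CPM in Lgr5+T8- cells, against 6.95 to 19.1 CPM in the 6 others (smallest pairwise difference -1.51, adjusted p = 0.00342). Ntrk2, the receptor of brain-derived neurotrophic factor, was at 4.19 and 3.11 CPM in Lgr5+T8- cells, against 7.96 to 14 CPM elsewhere (-1.53, adjusted p = 0.00402). The endothelin receptor Ednrb was at 3.09 and 1.55 CPM in Lgr5+T8- cells, against 5.57 to 11.2 CPM (-1.48, adjusted p = 0.00735). None of these genes had an Lgr5+T8- library within the range of the others. Sema3g, a class 3 semaphorin, Thsd4, a matrix protein that binds fibrillin, Rcan2, a regulator of calcineurin, and Olfr78, an olfactory receptor also found outside the nose, had smallest pairwise differences of -1.59, -1.72, -1.54 and -1.51. Pcp4l1 followed with -1.38, and the repressor Zeb1 with -1.45 at 2.11 and 1.44 CPM in Lgr5+T8- cells, against 4.74 to 8.89 CPM elsewhere. Without either Lgr5+T8- library or either Lgr5+T8hi library the calls of Sema3g, Rcan2, Olfr78, Pcp4l1 and Zeb1 were lost, with adjusted p of up to 0.287, and Thsd4 lost its call in 3 of these runs (0.0651 to 0.184).

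Further members of the 44 were the lysophospholipid receptor S1pr3 (-1.20), the vasopressin receptor Avpr1a (-1.23), the prostacyclin receptor Ptgir (-1.57), the interleukin receptor Il1r1 (-0.85), the angiopoietin Angpt2 (-1.48) and the T-type calcium channel Cacna1h (-1.06), each value being the smallest pairwise difference. Secreted members included the basement membrane linker Nid1 (-0.66), the insulin-like growth factor binding protein Igfbp4 (-0.61) and the protease inhibitor Serpine2 (-0.93). These were named after their values were seen, and each lost its call in 2 to 7 of the 8 runs with 1 library left out. Ceacam1 and Tgtp1 have near-identical copies, and 69.1% of the exon bases of Ccdc3 overlap an antisense gene, so these 3 members are uncertain. The call of Kcne4 was lost without Lgr5+T8- library 1 (adjusted p = 0.0692), that of Ntrk2 without either Lgr5+T8- library (0.0671 and 0.0894), and that of Ednrb without either Lgr5+T8- library or Lgr5+T8hi library 1 (0.0583, 0.121 and 0.0539). Over the 44 genes, the adjusted p without 1 library reached 0.442 at its highest, for Pear1.

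A set of 10 pericyte genes moved with this group and includes Notch3. Against the mean of the other 3, 7 of the 10 were lower in Lgr5+T8- cells and Mcam was higher. The defining marker Rgs5 was at 5.61 and 14.9 CPM in Lgr5+T8- cells, against 11.2 to 34.3 CPM in the other libraries, Cspg4 at 7.15 and 10.9 CPM against 12.3 to 19.4 CPM, Pdgfrb at 26.2 and 22.1 CPM against 30.1 to 40.2 CPM, and Abcc9 at 2.74 and 2.27 CPM against 3.49 to 10.4 CPM. None of these markers was at 0 in the Lgr5+T8- libraries. The summed level of the list was 459 and 292 CPM in Lgr5+T8- cells, against 317 to 503 CPM in the 6 others, and Mcam alone, which basal cells also express, gave 360 and 190 CPM of the Lgr5+T8- sums. Mcam was no longer called without either Lgr5+T8- library, Lgr5+T8hi library 1 or Lgr5-T8hi library 1. The part of pericyte RNA in the genes below every other population was not tested. In bulk RNA from sorted cells, fewer cells of a type and less RNA per cell cannot be told apart.

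The promoters of the genes below every other population were searched for short motifs, since these genes were lower together. RefSeq windows (GRCm38.p6) from 250 bases before to 50 bases after the start were present for 30 of the 44 genes, as 37 promoters, against 32851 promoters of all genes. The TCF/LEF motif of Wnt signalling (CTTTGAT or CTTTGAA, both strands) was in 2 of the 37 (5.41%), against 8.65% of all promoters. The STAT motif (TTCNNNGAA, a palindrome) was in 5.41%, against 8.30%. The E-box CACCTG, the core bound by Zeb factors, was in 8.11%, against 20.2%. The CArG box bound by serum response factor was in 2.70%, against 1.63%. The RBPJ motif of Notch signalling (GTGGGAA, both strands), added after the data were seen, was in none of the 37, against 6.38% of all promoters. These shares describe the letters in these windows. The promoters of 4 of the genes named above are shown, as the windows in which a motif match or its lack can be read, with a match in capitals: TCF/LEF in Kcne4, STAT in Notch3 and the E-box in Avpr1a, and no match in Nrp1.
Kcne4 (chr1:78816661-78816960, plus strand): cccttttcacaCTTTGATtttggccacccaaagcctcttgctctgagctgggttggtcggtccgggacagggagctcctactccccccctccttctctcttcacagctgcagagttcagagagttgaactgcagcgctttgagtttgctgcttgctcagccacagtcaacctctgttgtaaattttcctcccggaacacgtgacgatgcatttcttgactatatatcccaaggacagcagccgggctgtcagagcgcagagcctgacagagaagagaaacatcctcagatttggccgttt
Notch3 (chr17:32166841-32167140, minus strand): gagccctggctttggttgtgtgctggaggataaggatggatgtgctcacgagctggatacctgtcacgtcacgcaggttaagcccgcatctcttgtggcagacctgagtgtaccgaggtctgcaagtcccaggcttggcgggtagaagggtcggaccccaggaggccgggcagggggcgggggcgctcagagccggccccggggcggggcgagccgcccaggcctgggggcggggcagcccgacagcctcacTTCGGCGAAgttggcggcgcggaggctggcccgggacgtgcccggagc
Avpr1a (chr10:122448249-122448548, plus strand): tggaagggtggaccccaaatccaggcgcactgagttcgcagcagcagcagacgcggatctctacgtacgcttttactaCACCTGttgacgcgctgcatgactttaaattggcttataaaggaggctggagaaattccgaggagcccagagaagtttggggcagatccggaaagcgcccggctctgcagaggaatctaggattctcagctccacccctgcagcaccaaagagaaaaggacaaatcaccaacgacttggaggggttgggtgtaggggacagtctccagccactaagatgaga
Nrp1 (chr8:128358823-128359122, plus strand): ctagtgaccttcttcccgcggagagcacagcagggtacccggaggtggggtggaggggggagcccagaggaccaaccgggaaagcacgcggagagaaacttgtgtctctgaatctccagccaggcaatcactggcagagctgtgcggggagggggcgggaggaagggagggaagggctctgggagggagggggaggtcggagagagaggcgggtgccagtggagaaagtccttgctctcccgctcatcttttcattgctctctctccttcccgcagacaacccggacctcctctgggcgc

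The genes furthest from the mean of the other 3 were often not apart from each. Ryr3, a ryanodine receptor that releases calcium from internal stores, stood at 12.3 and 6.74 CPM in Lgr5+T8- cells, against 2.71 and 2.19 CPM in Lgr5+T8hi, 3.54 and 2.24 CPM in Lgr5-T8hi and 12.6 and 5.88 CPM in Lgr5-T8- cells. It was thus above both Tspan8-high populations, by 1.93 ± 0.20 and 1.70 ± 0.20 SE, and no difference from Lgr5-T8- cells was detected (0.06 ± 0.18 SE, adjusted p = 0.89). Tnc, the matrix glycoprotein tenascin C, stood at 60.6 and 51.9 CPM in Lgr5+T8- cells, against 35.7 and 25.8 CPM in Lgr5+T8hi, 26.4 and 19 CPM in Lgr5-T8hi and 55.8 and 27.6 CPM in Lgr5-T8- cells, a difference from the mean of 0.90 ± 0.13 SE (adjusted p = 0.00381). Within each batch the Lgr5+T8- library was the highest for Tnc, although the values of batches 1 and 2 overlapped. Frmpd4, a scaffold protein of synapses, was at 22.2 and 11.4 CPM in Lgr5+T8- cells, against 26.4 and 20.7 CPM in Lgr5+T8hi, 10.2 and 5.43 CPM in Lgr5-T8hi and 2.55 and 0.882 CPM in Lgr5-T8- cells. Its difference from the mean, 1.27 ± 0.15 SE, came down to 0.27 (adjusted p = 0.406) when Lgr5-T8- was left out of the mean.

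On the lower side, Coch, the matrix protein cochlin, stood at 1.54 and 1.55 CPM in Lgr5+T8- cells, against 2.77 and 1.59 CPM in Lgr5+T8hi, 23.9 and 11.6 CPM in Lgr5-T8hi and 19.8 and 20.1 CPM in Lgr5-T8- cells. It was low in both Lgr5+ populations, and Lgr5+T8- differed from Lgr5+T8hi by -0.50 ± 0.36 SE (adjusted p = 0.503). Zeb2, a repressor related to Zeb1, was at 2.99 and 2.35 CPM in Lgr5+T8- cells, against 11.7 and 16.3 CPM in Lgr5+T8hi, 18.9 and 11.9 CPM in Lgr5-T8hi and 7.91 and 8.16 CPM in Lgr5-T8- cells. No library of another population overlapped with Lgr5+T8- for Zeb2, and each pairwise difference passed its own adjustment, but with the largest p adjusted over all genes it missed the threshold (adjusted p = 0.099). Ryr3, Tnc, Coch and Zeb2 kept their call against the mean in all 8 runs with 1 library left out.

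Other genes far below the mean differed widely among the other populations. The voltage-gated potassium channel Kcna2 was at 0.346 and 0.279 CPM in Lgr5+T8- cells, against 1.87 and 1.82 CPM in Lgr5+T8hi, 18.2 and 7.70 CPM in Lgr5-T8hi and 4.0 and 6.65 CPM in Lgr5-T8- cells (-3.98 ± 0.61 SE, adjusted p = 0.0156). Serpinb2, a protease inhibitor, was at 0.22 and 0.359 CPM in Lgr5+T8- cells, against 0.317 and 0.643 CPM in Lgr5+T8hi, 2.25 and 0.772 CPM in Lgr5-T8hi and 46.5 and 30.5 CPM in Lgr5-T8- cells (-3.40 ± 0.53 SE, adjusted p = 0.0119). The channel Kcna1, the adhesion molecule L1cam and the collagen Col5a3 were lower, at log2 differences of -2.67, -2.30 and -1.98. Without either Lgr5+T8- library the calls of Kcna2 (adjusted p 0.118 and 0.125), Kcna1 (0.123 and 0.242), L1cam (0.0895 and 0.125) and Col5a3 (0.105 and 0.121) were lost. Kcna1 also lost its call without Lgr5+T8hi library 2 or either Lgr5-T8- library (0.0728, 0.115 and 0.133), Col5a3 without either Lgr5-T8- library (0.0829 and 0.104), and Serpinb2 without Lgr5+T8- library 1 (0.0883) or Lgr5-T8- library 2 (0.0516).

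Of the genes that each single comparison put first, Eya1, a transcriptional co-activator, differed in sign between populations. It was at 3.28 and 3.95 CPM in Lgr5+T8- cells, against 0.75 and 0.946 CPM in Lgr5+T8hi, 1.57 and 2.64 CPM in Lgr5-T8hi and 12.8 and 14.6 CPM in Lgr5-T8- cells, so it was above both Tspan8-high populations and below Lgr5-T8-. The Wnt inhibitor Sfrp1 was at 220 and 144 CPM in Lgr5+T8- cells, against 419 and 328 CPM in Lgr5+T8hi, 176 and 125 CPM in Lgr5-T8hi and 42.5 and 25.9 CPM in Lgr5-T8- cells. The tight junction gene Ocln was at 24.3 and 13.4 CPM in Lgr5+T8- cells, against 57.1 and 32.7 CPM in Lgr5+T8hi, 34.2 and 18.8 CPM in Lgr5-T8hi and 4.34 and 3.31 CPM in Lgr5-T8- cells, below both Tspan8-high populations and above Lgr5-T8-. The collagen Col9a1 was at 1.98 and 4.27 CPM in Lgr5+T8- cells, against 45 and 49.1 CPM in Lgr5-T8- cells and 3.17 and 3.1 CPM in Lgr5+T8hi cells, from which it did not differ detectably (-0.06 ± 0.26 SE). Against Lgr5+T8hi alone 359 genes were higher (2.17%) and 1201 lower (7.27%), against Lgr5-T8hi 149 (0.902%) and 561 (3.39%), and against Lgr5-T8- 630 (3.81%) and 834 (5.05%), or 9.44%, 4.30% and 8.86% of the genes tested in either direction. These comparisons share the Lgr5+T8- libraries. Leaving out 1 library moved every one of these counts by more than 1.5 times, to as few as 83 and 544, 20 and 260, and 295 and 455 genes in the order given.

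**Figure D1:**
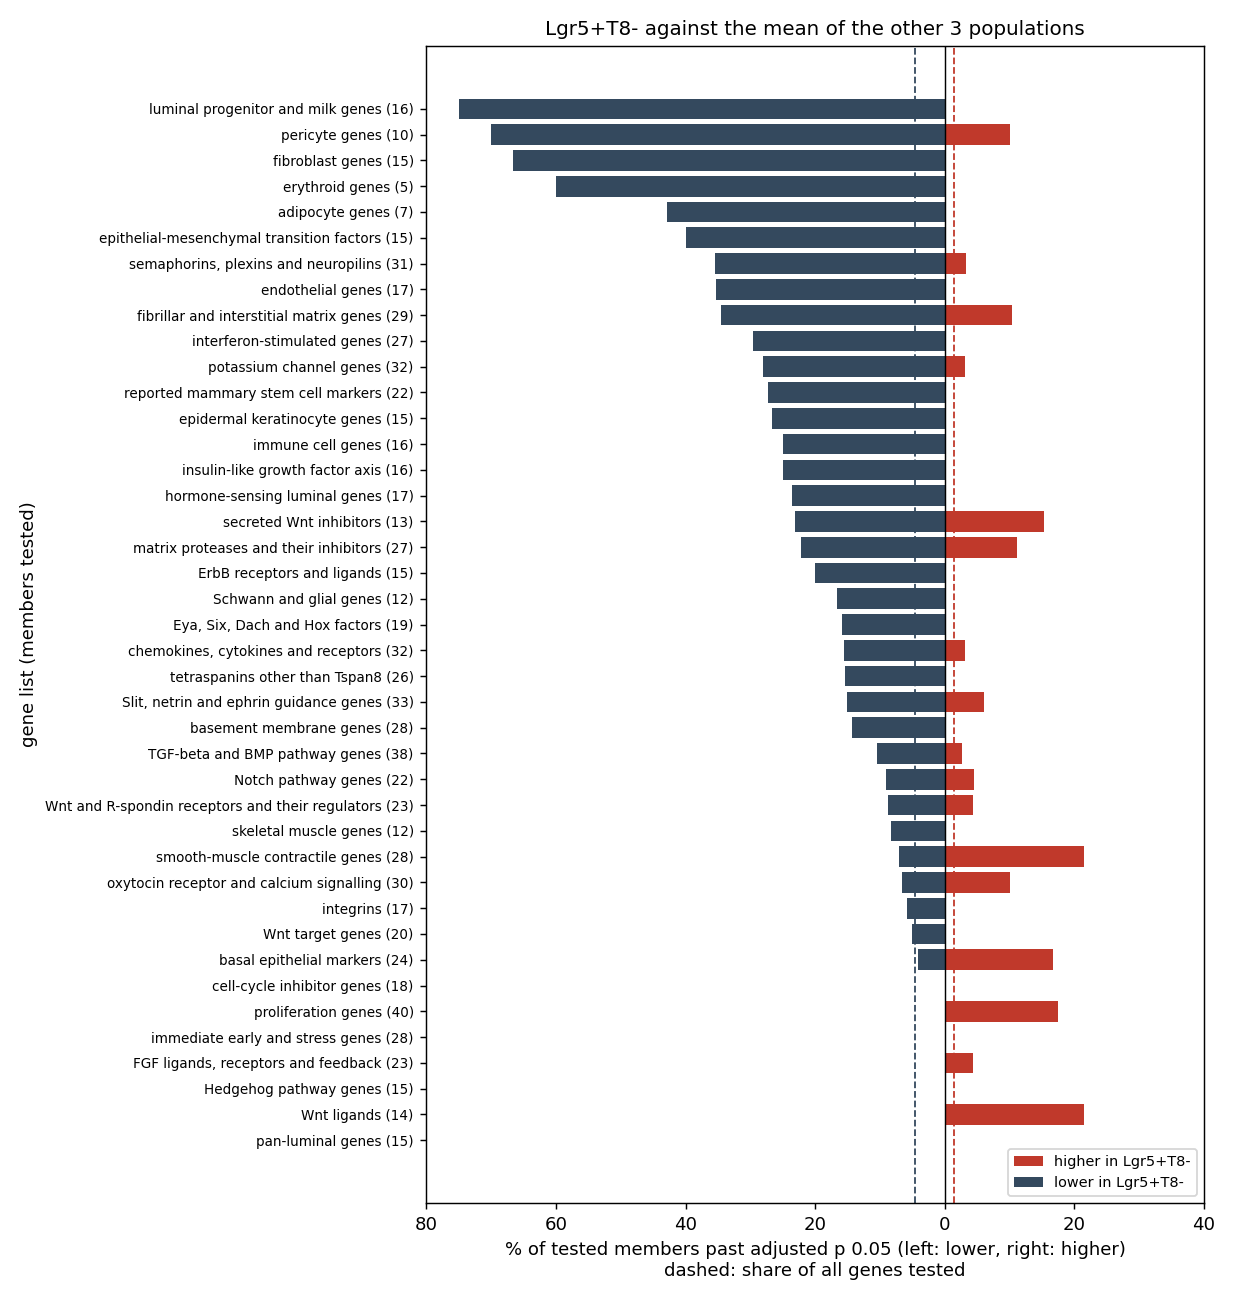
Share of the tested members of 41 gene lists that passed an adjusted p of 0.05 against the mean of the other 3 populations, lower in Lgr5+T8- to the left of 0 and higher to the right. The dashed lines give the shares over all genes tested, 4.56% lower and 1.44% higher, and the lists with most lower members were milk and luminal progenitor genes and genes of pericytes and fibroblasts.

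A few basal markers were higher in Lgr5+T8- cells. Of 24 tested, 4 were higher and 1 lower against the mean of the other 3, with a median log2 difference of 0.14, where the median over all genes was 0.03. Over all genes tested 1.44% were higher and 4.56% lower, the shares against which this and the other list counts are to be read. Krt17, a keratin of basal cells, stood at 3831 and 3692 CPM in Lgr5+T8- cells, against 3170 and 2640 CPM in Lgr5+T8hi, 2568 and 2671 CPM in Lgr5-T8hi and 2621 and 2377 CPM in Lgr5-T8- cells. Both Lgr5+T8- libraries exceeded all others, and the difference from the mean was 0.50 ± 0.08 SE (adjusted p = 0.00452). The oxytocin receptor Oxtr was higher by 0.34, the secreted Dkk3 by 0.37 and the actin-binding Cnn1 by 0.45, while the ErbB ligand Nrg1 was lower, at a log2 difference of -0.38, which was 0.028 with Lgr5-T8- left out of the mean. The 4 higher markers fell to 0 without Lgr5+T8- library 1, to 1 without Lgr5+T8- library 2, and to 2 without Lgr5+T8hi library 1 or Lgr5-T8hi library 1, and the lower one was lost without either Lgr5+T8- library or Lgr5+T8hi library 2.

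The smooth-muscle contractile genes that passed the test were mostly higher in Lgr5+T8- cells than in the Tspan8-high populations and mostly lower than in Lgr5-T8- cells. Of 28 members, 15 were higher and 2 lower against Lgr5+T8hi, 9 higher and 2 lower against Lgr5-T8hi, and 1 higher and 7 lower against Lgr5-T8-. Kcnmb1, a subunit of the calcium-activated potassium channel of smooth muscle, stood at 39.4 and 42.1 CPM in Lgr5+T8- cells, against 13.3 and 13.2 CPM in Lgr5+T8hi, 19.1 and 21.1 CPM in Lgr5-T8hi and 57.4 and 64.4 CPM in Lgr5-T8- cells. The smooth-muscle actin Actg2 was at 254 and 338 CPM in Lgr5+T8- cells, against 103 and 126 CPM in Lgr5+T8hi, 137 and 204 CPM in Lgr5-T8hi and 363 and 435 CPM in Lgr5-T8- cells. For both genes the 4 populations formed 4 separate levels, with Lgr5+T8- above both Tspan8-high populations and below Lgr5-T8-, and all 3 pairwise differences passed the test. Myh11 was at 3379 and 2573 CPM in Lgr5+T8- cells, against 1983 and 1719 CPM in Lgr5+T8hi, 2341 and 1849 CPM in Lgr5-T8hi and 4622 and 3653 CPM in Lgr5-T8- cells, and differed from the mean by 0.23 (adjusted p = 0.123). Against the mean of the other 3, 6 members were higher (Kcnmb1, Actg2, Synpo2, Cnn1, Tpm2 and Tagln, the last uncertain with 67.9% of its exon bases overlapped by antisense genes), and 1 was when Lgr5+T8hi was left out of that mean, 15 when Lgr5-T8- was.

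A pair of contractile genes ran against the list. Myocd, the co-activator that turns on smooth-muscle genes with serum response factor, was at 1.10 and 0.638 CPM in Lgr5+T8- cells, against 2.57 and 1.55 CPM in Lgr5+T8hi, 3.79 and 1.76 CPM in Lgr5-T8hi and 4.52 and 3.27 CPM in Lgr5-T8- cells. Des, the intermediate filament protein desmin, was at 6.36 and 5.58 CPM in Lgr5+T8- cells, against 17.3 and 13.0 CPM in Lgr5+T8hi, 17.8 and 11.5 CPM in Lgr5-T8hi and 11.3 and 9.34 CPM in Lgr5-T8- cells. Both were below all 6 other libraries, with differences of -1.69 ± 0.24 and -1.14 ± 0.12 SE against the mean (adjusted p 0.00146 and 0.000427), and both were called in all 8 runs with 1 library left out. The 6 higher members became 3 without either Lgr5+T8- library and 12 without Lgr5-T8- library 2. Of 30 genes of oxytocin and calcium signalling, 3 were higher (Oxtr, Kcnmb1 and Ryr3) and 2 lower, the ryanodine receptor Ryr2 and Cacna1h, and the lower ones numbered 1 without either Lgr5+T8- library and 4 without Lgr5-T8- library 2.

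**Figure D2:**
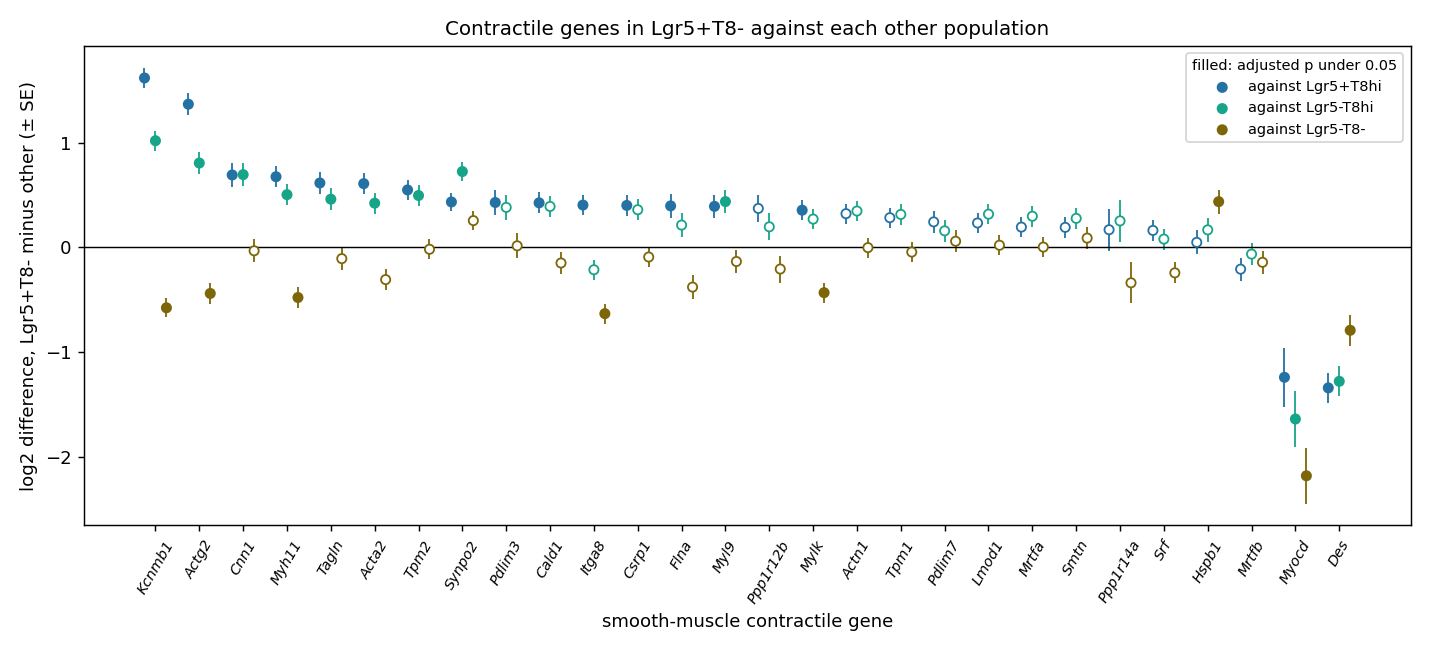
Log2 difference of Lgr5+T8- from each other population, with its standard error, for the 28 smooth-muscle contractile genes, ordered by the difference from Lgr5+T8hi. Filled points passed an adjusted p of 0.05, and most filled points against the Tspan8-high populations are above 0 while those against Lgr5-T8- are mostly below it, with Myocd and Des below 0 in all 3.

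Genes of luminal progenitors and milk were the list with the largest share of lower members. Of 16 tested, 12 were lower and none higher against the mean of the other 3, with a median of -1.25. The summed level of the list was not lowest here. It was 2098 and 1865 CPM in Lgr5+T8- cells, against 1926 and 1756 CPM in Lgr5+T8hi, 3098 and 2694 CPM in Lgr5-T8hi and 2736 and 2749 CPM in Lgr5-T8- cells. The milk protein gene Csn3, kappa-casein, stood at 10.2 and 5.54 CPM in Lgr5+T8- cells, against 40.8 and 35.6 CPM in Lgr5+T8hi, 81.4 and 54.7 CPM in Lgr5-T8hi and 15.9 and 11.5 CPM in Lgr5-T8- cells (-2.08 ± 0.13 SE, adjusted p = 1.32e-05). Elf5, the transcription factor of the alveolar lineage, was at 0.819 and 0.718 CPM in Lgr5+T8- cells, against 2.91 and 5.52 CPM in Lgr5+T8hi, 5.58 and 7.70 CPM in Lgr5-T8hi and 1.18 and 1.65 CPM in Lgr5-T8- cells (-2.09 ± 0.25 SE). Both Lgr5+T8- libraries were the lowest for both genes, with Lgr5-T8- next. Ehf, an epithelial transcription factor of the same family as Elf5, was lower at -1.44, the receptor Cd14 at -1.07, the progenitor gene Kit at -1.67 and the aldehyde dehydrogenase Aldh1a3 at -1.55. Against the single populations 9 members were lower and 1 higher than in Lgr5+T8hi, 13 lower than in Lgr5-T8hi, and 4 lower than in Lgr5-T8- cells.

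Of 17 hormone-sensing luminal genes tested, 4 were lower: Greb1, a target of the oestrogen receptor, at -1.18, Ly6a at -1.10, the pioneer factor Foxa1 at -0.92 and the growth factor Areg at -0.58. In the absence of Lgr5+T8- library 1, the count was 7. The call of Foxa1 was lost without Lgr5+T8- library 2 (adjusted p = 0.0827), and that of Ly6a without either Lgr5+T8hi or either Lgr5-T8- library (0.0651, 0.0644, 0.112 and 0.0878). By population, 7 of the 17 hormone-sensing genes were lower than in Lgr5+T8hi and 3 lower than in Lgr5-T8hi, while 1 was lower and 2 were higher than in Lgr5-T8- cells. With Lgr5+T8hi left out of the mean, 1 was lower and 1 higher. None of 15 genes shared by all luminal cells passed against the mean, whereas 7 were lower than in Lgr5+T8hi, 3 lower than in Lgr5-T8hi and 8 higher than in Lgr5-T8- cells. Without Lgr5+T8- library 1, 5 of them were lower against the mean, and 1 was without Lgr5-T8hi library 1. The keratin Krt8 was at 761 and 504 CPM in Lgr5+T8- cells, against 835 and 603 CPM in Lgr5+T8hi, 746 and 523 CPM in Lgr5-T8hi and 511 and 427 CPM in Lgr5-T8- cells. What part luminal cells in the gates had in these lists was not tested.

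Of the 14 Wnt ligands tested, 3 were higher and none lower against the mean of the other 3. Wnt10a stood at 72.7 and 103 CPM in Lgr5+T8- cells, against 48.5 and 54.6 CPM in Lgr5+T8hi, 46.9 and 63.6 CPM in Lgr5-T8hi and 59.5 and 58.6 CPM in Lgr5-T8- cells. Both Lgr5+T8- libraries were above all 6 others, by 0.65 ± 0.10 SE against the mean (adjusted p = 0.00234), and each pairwise difference passed its own adjustment. Wnt11 was at 267 and 228 CPM in Lgr5+T8- cells, against 261 and 192 CPM in Lgr5+T8hi, 164 and 149 CPM in Lgr5-T8hi and 123 and 109 CPM in Lgr5-T8- cells, and followed the Lgr5 sort (0.14 against Lgr5+T8hi, adjusted p = 0.497). Wnt9a was higher by 0.49. Wnt10a lost its call without Lgr5+T8- library 2 (adjusted p = 0.0854), when 1 ligand was left. Wnt9a lost its call without either Lgr5+T8- library, either Lgr5+T8hi library or Lgr5-T8hi library 1 (0.0501 to 0.182), and 1 ligand was lower without Lgr5+T8- library 1.

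Receptors, inhibitors and targets of Wnt signalling showed no common direction. Of 23 receptors and regulators, Fzd10 was higher by 0.58, and the receptors Fzd4 and Ror2 were lower at -0.76 and -1.64. The sort gene Lgr5, itself a receptor for R-spondins, is not counted among them and was higher by 0.88. Among 13 secreted inhibitors, Sfrp1 and Dkk3 were higher by 0.54 and 0.37, Dkk3 being called in 4 of the 8 runs with 1 library left out, and Sfrp5, Sfrp4 and Dkk2 lower at -1.69, -1.03 and -1.92. The sign of Sfrp1 depended on Lgr5-T8-: it was -0.40 with that population left out of the mean, when no inhibitor was higher and 5 were lower, and -0.047 with the 6 other libraries as 1 group. Of 20 target genes only Tnfrsf19 was lower (-1.11), a share close to the 4.56% lower over all genes tested. Axin2, the feedback inhibitor most often read as a Wnt target, was at 24.2 and 24.7 CPM in Lgr5+T8- cells, against 20.2 to 36.1 CPM in the 6 others (-0.12 ± 0.09 SE, adjusted p = 0.536). When Lgr5+T8- library 2 was left out, the calls of Fzd10, Fzd4 and Ror2 were lost, with differences of 0.48, -0.64 and -1.28. Fewer inhibitors were then called in each direction. In the absence of Lgr5+T8- library 1, no inhibitor was higher. Fzd10 and Tnfrsf19 each lost their call in 5 of the 8 runs. Sfrp5 was called in all 8 runs with 1 library left out.

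Among 22 reported markers of mammary stem cells, not counting the sort genes Lgr5 (0.88) and Tspan8 (-2.66), none was higher and 6 were lower. The lower ones were Zeb1 (-1.77), Notch3 (-1.62), Nrp1 (-1.60), the adrenomedullin co-receptor Ramp2 (-1.24, uncertain because 33.4% of its exon bases overlap Vps25), the transcription factor Foxc1 (-0.72) and the protein C receptor Procr (-0.63). Procr stood at 59.7 and 21.6 CPM in Lgr5+T8- cells, against 126 and 49.7 CPM in Lgr5+T8hi, 82.9 and 39.7 CPM in Lgr5-T8hi and 61.1 and 23.9 CPM in Lgr5-T8- cells, so it was low in both Tspan8-negative populations. Of 15 factors of epithelial-mesenchymal transition 6 were lower and none higher, with a median of -0.38, namely Zeb2, Zeb1, Foxc2 (-2.07), Foxc1, Prrx1 (-0.70) and Tbx2 (-0.38). Tbx2 was called in 1 of the 8 runs with 1 library left out (adjusted p up to 0.331), and was 0.35 with Lgr5-T8- left out of the mean. Without Lgr5+T8- library 2 the 6 became 2. Zeb1, Zeb2 and Prrx1 are expressed in stromal cells, as the fibroblast genes described below are, and the part of such cells was not tested.

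Some guidance genes were lower. Of 31 semaphorins, plexins and neuropilins, 11 were lower and 1 higher, with a median of -0.29. The neuropilins Nrp1 and Nrp2 were lower at -1.60 and -0.92, Nrp2 being at 16.0 and 11.6 CPM in Lgr5+T8- cells, against 19 to 37.0 CPM in the 6 others. The ligands Sema3g (-1.97), Sema7a (-1.40), Sema5b (-0.90) and Sema3d (-0.89) and the plexin Plxnd1 (-0.41) were also lower, and Sema4c was higher by 0.31. Without Lgr5+T8- libraries 1 and 2 the 11 became 7 and 5, and Sema4c was called in 2 of the 8 runs. Of 33 genes of the Slit, netrin and ephrin systems, with a median of -0.05, 5 were lower, including Slit2 (-0.64) and the netrin receptor Unc5c (-1.76), and 2 were higher, Ntn4 (0.48) and Ephb1 (0.34). The lower ones fell to 3 and 1 without Lgr5+T8- libraries 1 and 2 and to 3 and 2 without Lgr5+T8hi libraries 1 and 2, and the higher ones to 0 and 1 without the Lgr5+T8- libraries and to 1 without Lgr5-T8hi library 1.

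Potassium channel genes were lower in 9 of 32 tested, with a median of -0.90, and Kcnmb1 was the 1 higher. Besides Kcna2, Kcna1 and Kcne4, the lower ones included Kcnab1 (-1.39), Kcnk3 (-2.12), Kcnn4 (-1.89), Kcnq1 (-1.62) and Kcna6 (-1.16), the last uncertain because 39.6% of its exon bases overlap an antisense gene. Without Lgr5+T8- libraries 1 and 2 the 9 became 4 and 3. Tetraspanins other than Tspan8 were lower in 4 of 26, among them Tspan15 (-0.64) and Tspan7 (-0.48), and the count was 1 without either Lgr5+T8- library and 2 without any library of the Tspan8-high populations. Schwann and glial genes were lower in 2 of 12 (Mbp at -0.55 and S100b at -1.62), with summed levels of 471 and 410 CPM in Lgr5+T8- cells, against 451 to 541 CPM in the others. The myelin gene Mbp was not at 0, with 32.1 and 24.8 CPM in Lgr5+T8- cells, against 30.8 to 57.1 CPM in the others. The 2 lower Schwann genes became 0 without Lgr5+T8- library 2, 1 without either Lgr5+T8hi library, 5 without Lgr5-T8hi library 2 or Lgr5-T8- library 1, and 4 without Lgr5-T8- library 2. Their part in the channel genes was not tested.

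Of 29 fibrillar and interstitial matrix genes, 10 were lower and 3 higher. The lower ones included the collagens Col3a1 (-1.63), Col6a3 (-1.5) and Col1a2 (-1.07) and the thrombospondin Thbs4 (-1.96). The higher ones were Tnc, Col14a1 (0.36) and Postn, the matricellular protein periostin, which is abundant here. Postn stood at 3911 and 2871 CPM in Lgr5+T8- cells, against 3275 and 2457 CPM in Lgr5+T8hi, 2079 and 1551 CPM in Lgr5-T8hi and 2339 and 1819 CPM in Lgr5-T8- cells, a difference from the mean of 0.61 ± 0.07 SE (adjusted p = 0.000728). Within each batch the Lgr5+T8- library was the highest. When Lgr5+T8- library 2 was left out, 6 of the interstitial matrix genes were lower, and without Lgr5-T8- library 1, 6 were higher.

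Of 28 basement membrane genes 4 were lower, the linker Nid1, the laminin chain Lama2 (-1.64), the integrin ligand Npnt (-1.13) and Frem2 (-0.58, but 0.022 with Lgr5-T8- left out of the mean), and none was higher. Of 17 integrins 1 was lower, the laminin receptor Itga7 (-0.85), a share close to the 4.56% lower over all genes tested. Nid1 was at 55.3 and 71.4 CPM in Lgr5+T8- cells, against 97.1 to 136 CPM in the 6 others, with no overlap. Of 16 genes of the insulin-like growth factor axis 4 were lower, with Igfbp4 at 34.8 and 40.8 CPM in Lgr5+T8- cells, against 53.1 to 108 CPM elsewhere, and the abundant Igfbp5 at 5274 and 5098 CPM in Lgr5+T8- cells, against 5637 to 7975 CPM. Neither overlapped with another library. Igf2 was lower at -1.77, but 64.5% of its exon bases overlap other genes, so its value is uncertain. Igfbp5 lost its call without either Lgr5+T8- library or Lgr5+T8hi library 2 (adjusted p 0.0567, 0.22 and 0.0598), Lama2 and Npnt without Lgr5+T8- library 2 (0.0594 and 0.0693), and without Lgr5-T8- library 2 the 4 basement membrane genes became 7. The 4 genes of the growth factor axis became 2 and 1 without Lgr5+T8- libraries 1 and 2 and 2 without Lgr5+T8hi library 2. Matrix proteases and inhibitors were lower in 6 and higher in 3 of 27, and fewer passed in each direction without either Lgr5+T8- library. By population, 11 were lower and none higher than in Lgr5+T8hi, 5 lower and 1 higher than in Lgr5-T8hi, and 4 lower and 9 higher than in Lgr5-T8- cells. The higher ones numbered 7 with Lgr5+T8hi left out of the mean, and there were none with Lgr5-T8- left out.

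Interferon-stimulated genes were lower in 8 of 27 and higher in none, with a median of -0.27. The antiviral genes Ifit3 and Rsad2 were lower at -1.35 and -1.80. Ifit3 was at 3.75 and 3.03 CPM in Lgr5+T8- cells, against 17.4 and 12.0 CPM in Lgr5+T8hi, 10.3 and 7.94 CPM in Lgr5-T8hi and 5.03 and 4.56 CPM in Lgr5-T8- cells, so most of the difference lay towards the Tspan8-high populations. Against Lgr5-T8- cells alone 1 of the 27 was lower and 1 higher. The count of 8 became 4 without Lgr5+T8- library 2, and 1 gene was higher without Lgr5-T8- library 2. Among 32 chemokines, cytokines and receptors 5 were lower, among them the alarmin Il33 (-1.65), the cytokine Il6 (-0.95) and Il1r1, and Cxcl14 was higher by 0.32. Without Lgr5-T8- library 1 there were 9 lower and 3 higher, and none was higher without any 1 of the Lgr5+T8-, Lgr5+T8hi and Lgr5-T8hi libraries. Il6 was at 46.7 and 25.2 CPM in Lgr5+T8- cells, against 175 and 82.6 CPM in Lgr5+T8hi, 78.2 and 59.2 CPM in Lgr5-T8hi and 47.2 and 26 CPM in Lgr5-T8- cells, close to Lgr5-T8- within each batch. The 16 immune cell genes tested were lower in 4 and higher in none, with summed levels of 22.1 and 19 CPM in Lgr5+T8- cells, against 24.2 to 62.3 CPM in the others. By population, 11 were lower than in Lgr5+T8hi and none was lower than in Lgr5-T8hi or Lgr5-T8- cells. With Lgr5+T8hi left out of the mean, none of the 16 was called. Ptprc was at 1.04 and 1.12 CPM in Lgr5+T8- cells, against 1.36 to 8.51 CPM, Csf1r at 0.535 and 1.04 CPM against 1.04 to 5.14 CPM, and Cd3e under 0.1 CPM in both Lgr5+T8- libraries, and Nkg7 was at 0 there. None of the 16 was called without Lgr5+T8- library 2. The part of immune cells was not tested.

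Of 15 fibroblast genes 10 were lower and none higher in Lgr5+T8- cells against the mean of the others, with a median of -0.93 and summed levels of 472 and 527 CPM in Lgr5+T8- cells, against 672 to 1490 CPM in the 6 others. By population, 14 were lower than in Lgr5+T8hi, and 10 were lower and 1 higher than in Lgr5-T8hi. Against Lgr5-T8- cells 4 were lower and 3 higher, with a median of 0.005, so the list as a whole was not below that population. Col1a1 was at 61.4 and 52.1 CPM in Lgr5+T8- cells, against 56.6 and 62.2 CPM in Lgr5-T8- cells and 102 to 230 CPM in the Tspan8-high populations, while Dpt and Lum were above the Lgr5-T8- libraries and below the Tspan8-high ones. Pdgfra, in contrast, was at 6.43 and 7.30 CPM in Lgr5+T8- cells, against 9.03 to 16.7 CPM in all 6 others. Of 17 endothelial genes 6 were lower, with a median of -1.23 and summed levels of 354 and 251 CPM in Lgr5+T8- cells, against 379 to 1253 CPM. The highest sums, 1253 and 1191 CPM, were those of Lgr5+T8hi. By population, 15 were lower than in Lgr5+T8hi, 2 lower than in Lgr5-T8hi and 2 lower than in Lgr5-T8- cells. With Lgr5+T8hi left out of the mean, 2 were lower. Cd34 was at 16.1 and 14.3 CPM in Lgr5+T8- cells, against 22.5 to 55.5 CPM in the others. The 6 endothelial calls were unstable: there were 12 and 2 without Lgr5+T8- libraries 1 and 2, 3 without either Lgr5+T8hi library, 17 and 15 without Lgr5-T8hi libraries 1 and 2, and 2 and 3 without Lgr5-T8- libraries 1 and 2. Fibroblast genes were lower in 6 without Lgr5+T8- library 2, and 1 was higher without either Lgr5-T8- library.

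Adipocyte genes were lower in 3 of 7 (82.8 and 53.7 CPM summed in Lgr5+T8- cells, against 92.5 to 344 CPM), with Adipoq and Plin1 under 0.5 CPM in all 8 libraries. Erythroid genes, whose globin copies are near-identical and thus uncertain, were lower in 3 of 5 (4.35 and 2.15 CPM, against 5.22 to 29.8 CPM). Epidermal keratinocyte genes were lower in 4 of 15, although their summed level did not order the groups (399 and 932 CPM in Lgr5+T8- cells, against 327 to 636 CPM), and none of them was lower without Lgr5+T8- library 2, while 1 was without Lgr5+T8- library 1 and 2 were without Lgr5+T8hi library 1. Of 12 skeletal muscle genes 1 was lower, and none was in 6 of the 8 runs. Of the 753 genes lower against the mean, 40 belong to 1 of these marker lists for cells outside the mammary epithelium, as do 109 of the 16526 tested. Among the 44 genes below every other population 1 does, Notch3. The lists are short, with 10 pericyte and 17 endothelial genes. These are therefore counts of list members, and other genes expressed in such cells were not counted.

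**Figure D3:**
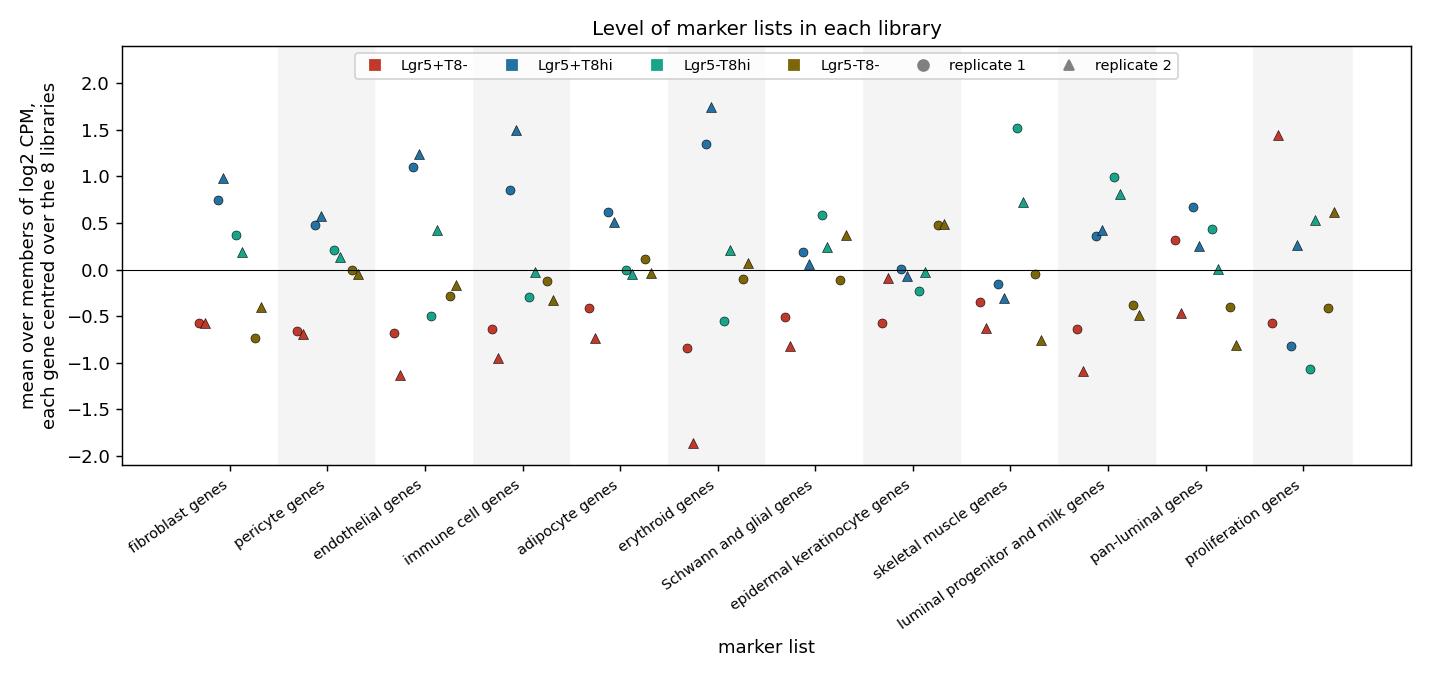
Mean over the members of a marker list of log2 CPM, each gene centred over the 8 libraries, with 1 point per library, colours for populations and symbols for replicates. Both Lgr5+T8- points lie below 0 for every list of a cell type outside the epithelium and for milk genes, and Lgr5+T8- library 2 stands far above the other libraries for proliferation genes. Both Lgr5-T8- points also lie below 0 for fibroblast, pericyte, endothelial, immune, skeletal muscle and milk genes. For fibroblast genes Lgr5-T8- replicate 1 lies below both Lgr5+T8- points.

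Cell-cycle genes were higher on the strength of 1 library. Of 40 proliferation genes 7 were higher and none lower against the mean, with a median of 0.72. Ccnb1, cyclin B1, was at 3.18 and 25.7 CPM in Lgr5+T8- cells, against 1.96 and 7.72 CPM in Lgr5+T8hi, 1.29 and 10.6 CPM in Lgr5-T8hi and 3.06 and 10.0 CPM in Lgr5-T8- cells. The spindle protein gene Nusap1, outside that list, was at 3.84 and 21.5 CPM in Lgr5+T8- cells, against 3.35 and 7.04 CPM in Lgr5+T8hi, 3.05 and 9.03 CPM in Lgr5-T8hi and 2.73 and 7.21 CPM in Lgr5-T8- cells. Replicate 2 was above replicate 1 in all 4 populations, and in CPM the gap was widest in Lgr5+T8-, while as a ratio that of Ccnb1 was about as wide in Lgr5-T8hi. Summed over the list, the level was 592 and 1515 CPM in Lgr5+T8- cells, against 533 and 749 CPM in Lgr5+T8hi, 499 and 864 CPM in Lgr5-T8hi and 558 and 889 CPM in Lgr5-T8- cells.

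Within batch 1 the median difference of the proliferation genes was 0.21, and within batch 2 it was 1.11. Differences from the mean were 1.14 ± 0.25 SE for Ccnb1 (adjusted p = 0.0409), 1.02 ± 0.23 SE for Nusap1 (0.0354), 0.99 ± 0.23 SE for Cep55 (0.0471), 0.97 ± 0.20 SE for Cdca3 (0.0218) and 0.87 ± 0.19 SE for Ccna2 (0.0343). In the absence of Lgr5+T8- library 2, none of the 40 genes was called and these 5 differences were 0.64, 0.34, 0.25, 0.54 and 0.30, with adjusted p of 0.454 to 0.671. Without Lgr5+T8- library 1, 24 of the 40 were higher. The count was 1 without Lgr5+T8hi library 2 and 13 without Lgr5-T8- library 1. None of 18 cell-cycle inhibitors passed in either direction, and 1 in each direction did without Lgr5+T8- library 1.

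**Figure D4:**
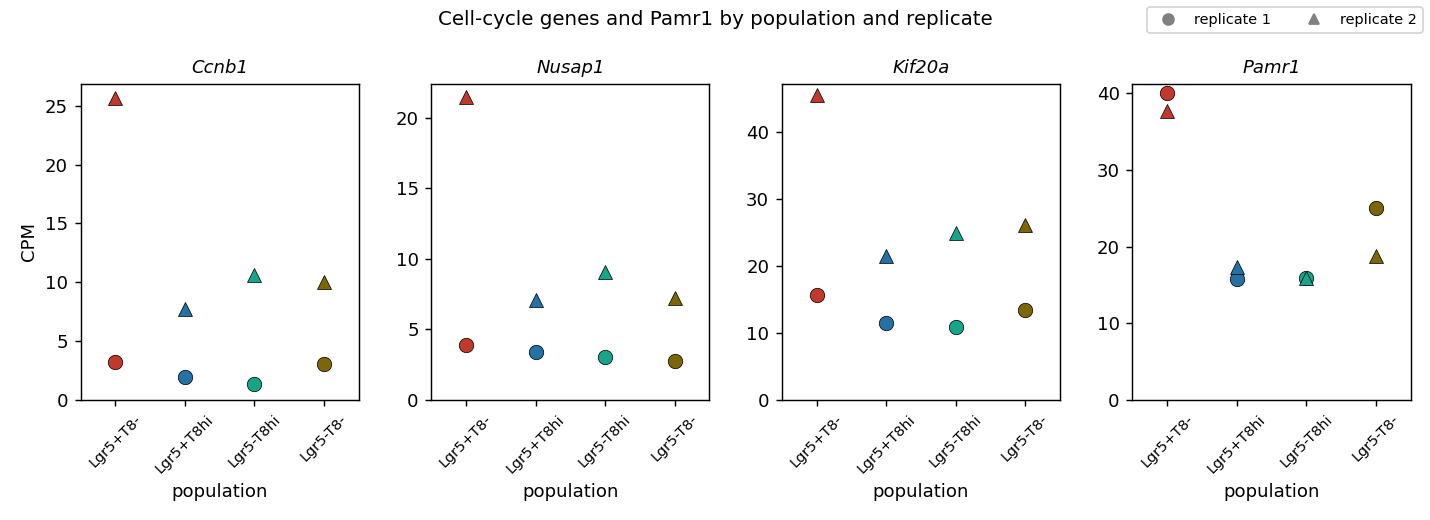
Level in CPM, from 0, of the cell-cycle genes Ccnb1, Nusap1 and Kif20a and of Pamr1 in each library, by population, with circles for replicate 1 and triangles for replicate 2. For the cell-cycle genes the Lgr5+T8- triangle stands apart while its circle lies near the other circles, and for Pamr1 both Lgr5+T8- libraries stand above the others.

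In the remaining lists few members passed. No member of 15 Hedgehog pathway genes or of 28 immediate early and stress genes was called, by edgeR at an adjusted p below 0.05, although 2 and 5 of them had an unadjusted p below 0.05. When Lgr5+T8- library 1 was left out, 2 immediate early genes were lower, and 4 were without Lgr5-T8- library 1, and 1 Hedgehog gene was lower without Lgr5-T8hi library 2 or Lgr5-T8- library 1. Of 15 ErbB receptors and ligands Areg, Erbb3 (-0.41) and Nrg1 were lower, and 1 of them was without either Lgr5+T8- library or Lgr5+T8hi library 2. Of 23 genes of the fibroblast growth factor system the receptor Fgfr3 was higher by 0.51, a call lost without Lgr5+T8- library 1 (adjusted p = 0.109). Of 38 genes of the transforming growth factor beta and bone morphogenetic protein pathways, 4 were lower, among them the latency-binding Ltbp1 (-0.69) and the ligand Bmp6 (-1.14), and 1 was higher, Ltbp2 (0.48). With Lgr5+T8- library 2 or Lgr5+T8hi library 2 left out, 1 of the 4 was lower, and Ltbp2 lost its call without either Lgr5+T8- library. Of 19 Eya, Dach, Hox and related factors 3 were lower, and 0 to 2 were in the runs with 1 library left out.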

How the data were processed

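RNA from 8 libraries of sorted basal cells was sequenced single-end, and the counts deposited by the authors are whole reads per gene, not normalized, for 27164 Entrez genes. Per the submitters' processing notes the tools were CASAVA 1.8.2, featureCounts, edgeR 3.10.2 and limma 3.24.14, with the builds mm10 and GRCm38. The aligner and the strand setting are not given in the sources used here, so values of genes whose exons overlap another gene are uncertain. Besides the genes marked in the text, this touches 12.5% of the exon bases of Ccna2, 15.1% of Csf1r, 13.9% of Fgfr3, 29.3% of Kif20a, 15.3% of Olfr78 and 12.4% of Serpinb2. Gene symbols and coordinates come from RefSeq GRCm38.p6, which matched 25260 of the IDs, and the unmatched IDs took up 2.56% to 2.86% of all reads counted. Total counts ran from 24571300 to 38384875. Scaled to these totals, without the TMM adjustment of the other values, 3 counts, the limit that a count of 0 allows, correspond to 0.0782 to 0.122 CPM. Intervals of this kind cover counting error only.

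The comparisons used edgeR 4.0.16 in R 4.3.3, with the quasi-likelihood test (robust), TMM normalization, a filter by expression at a minimum count of 10 (16526 genes kept, 10638 left out), and a model of population plus batch over all 8 libraries, with 3 residual degrees of freedom. P-values are two-sided and adjusted by Benjamini-Hochberg over all genes tested, with a threshold of 0.05. A gene apart from each of the other 3 populations was tested with the largest of the 3 pairwise p-values. The labels tie each replicate number to a batch, and deviations from the population means were shared within a number (correlations of 0.415 to 0.55 over the 6 pairs of populations), so the number entered as a block. Replicates of each population differed by more than counting noise.

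Named genes were the 10 furthest in each direction against the mean and the 10 furthest among those apart from each, at a mean of at least 5 CPM, the 3 furthest in each direction of each single comparison, and the 4 members of each of 41 gene lists with the smallest adjusted p. Other genes were named after their values were seen. A few of the genes the rule names are not reported here. The populations, members and lists were chosen with earlier results of these data known, so no list is independent evidence of its direction. Alternatives were a model without the batch, other normalizations and filters, DESeq2 1.42.0, limma-voom (limma 3.58.1), leaving out each library, and leaving each other population out of the mean. Where 1 library of a population was left out, the remaining one was taken to vary like the others. The procedure was tested on simulated data: of 200 genes changed 2-fold among 16340, 99% were called against the mean and 96.5% as apart from each, and of 200 changed 1.5-fold, 85.5% and 50.5%. False calls made up 10.8% and 12.8% of the simulated calls against the mean at 2-fold and 1.5-fold, above the 5% the threshold aims at. Of those apart from each they made up 0.516% and 0.980%. Changed genes were drawn from those at 5 CPM or more, and unchanged genes had the same mean in all 4 populations within a batch. Genes that differ from only some of the other populations were not simulated, so the shares for genes apart from each do not cover them.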

Additional observations from a re-analysis of the deposited data

How the results depend on the processing

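The batch, which pairs libraries by replicate number as a block, decided most counts. With no replicate block, 5 genes were higher and 47 lower against the mean of the other 3, 0 and 0 apart from each, 28 and 484 against Lgr5+T8hi, 3 and 54 against Lgr5-T8hi, and 64 and 144 against Lgr5-T8-. Taking the 6 other libraries as 1 group gave 1 higher and 15 lower. Leaving Lgr5+T8hi out of the mean gave 372 higher. Without a count filter 5 higher and 69 lower genes were apart from each, and with DESeq2 83 lower. With 1 library left out, the counts ran from 55 to 488 higher and 234 to 893 lower against the mean, 0 to 6 and 5 to 74 apart from each, 83 to 733 and 544 to 1457 against Lgr5+T8hi, 20 to 350 and 260 to 780 against Lgr5-T8hi, and 295 to 1078 and 455 to 1276 against Lgr5-T8-.

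A few genes changed sign against the mean. Without Lgr5+T8hi in the mean Eya1 was -0.56, Cldn7 0.044 and Cdon 0.0040. Without Lgr5-T8- Sfrp1 was -0.40, Ocln -0.88, Nrg1 0.028, Frem2 0.022, Itga1 0.17, Pappa2 0.23 and Tbx2 0.35. With the 6 libraries as 1 group Eya1 was -0.61, Sfrp1 -0.047 and Ocln -0.42. Over the runs with 1 library left out Gadd45b ranged from -0.048 to 0.46, the lowest being that without Lgr5+T8- replicate 1. The cause was not tested. Of 139 named genes called against the mean, 68 were called in all 8 runs with 1 library left out. Genes under 1 CPM, such as Lhx2 in most libraries, rest on few counts.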
